A study of Schizosaccharomyces pombe with 8 samples.

Results

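The transcripts described here are those of the mitochondrial genome of the fission yeast *Schizosaccharomyces pombe*. They are the genes whose ID begins with SPMIT in the table of all genes of an RNA immunoprecipitation experiment. There are 36 of them among 7014 listed genes, 11 with a numbered ID (SPMIT.01 to SPMIT.11) and 25 with a tRNA ID that spells an amino acid. The study asked how the La-related protein Pof8 acts in telomerase, and which RNAs the Sm-like protein Lsm8 holds. RIP-Seq (sequencing of RNA from an immunoprecipitate, IP) was done once for Lsm8 and once for a control. RNA-Seq compared 3 libraries from pof8Δ cells (strain PP1723, pof8::kanMX6) with 3 libraries from pof8+ cells (strain PP138), all grown in rich medium (YES). The Lsm8 IP strain is, by the study's strain list, PP585, which carries lsm8-myc13-natMX6, and for the control IP the strain is not given in the sources used here. PP585, PP1723 and PP138 share the alleles ade6-M216, leu1-32, ura4-D18 and his3-D1. The labels do not say whether replicate libraries came from separate cultures, so p-values measure only the spread between libraries.

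Lsm8 is the subunit that sets the nuclear Lsm2-8 ring apart from its cytoplasmic relative, and the ring binds runs of uridine at RNA 3′ ends, as on the U6 snRNA. The mitochondrial genome lies in another compartment. In fission yeast it encodes core subunits of cytochrome oxidase (cox1, cox2, cox3), of the cytochrome bc1 complex (cob) and of the ATP synthase (atp6, atp8, atp9), the ribosomal protein rps3, the tRNAs for mitochondrial translation, the RNA of RNase P and both ribosomal RNAs. It is transcribed as long precursors, and the mature mRNAs and rRNAs are freed largely by excision of the tRNAs that lie between them. The files analyzed pair a gene name with only 2 of the numbered IDs. SPMIT.07 is atp6, subunit a of the membrane-bound F0 part of the ATP synthase, through which protons pass. SPMIT.10 is atp9, the F0 subunit that forms the rotating c ring. The other 9 numbered IDs are given without a name. The 2 rRNA genes, 21S_rRNA and 15S_rRNA (the large and small mitochondrial ribosomal RNA), have IDs of another form and are given beside the 36 transcripts.

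The reads worked back for the listed genes summed to 6604836 for Lsm8 and 942080 for the control. The control sum lacks 98 genes that had reads in the control IP alone, and total reads below means these sums. The spliceosomal snRNAs, known partners of the Sm and Lsm rings, took 70.6% of the Lsm8 IP reads and 2.62% of the control IP reads. The authors divided each count by the median count over all listed genes, which was 96 Lsm8 IP reads and 37 control IP reads, and an Lsm8 ratio below is the ratio of these normalized counts. Intervals on ratios are exact (Clopper-Pearson) at 95% and cover counting error only, since 1 library per group leaves no replicate check. Scaled by total reads instead, every ratio is multiplied by 0.370, so a sentence on a ratio above or below 1 holds for the median scaling alone unless it says otherwise. Reads were counted without regard to strand, so a transcript and one antisense to it cannot be told apart.

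Of the 36 mitochondrial transcripts, 1 (atp6) was enriched in the Lsm8 IP by the study's rule, a difference of at least 10 normalized counts and a ratio above 2. Over all 7014 listed genes 35 were enriched (0.499%). The 36 transcripts together held 15087 Lsm8 IP reads and 3648 control IP reads, 0.228% and 0.387% of these sums. Their summed Lsm8 ratio was 1.59 (1.54 to 1.65), and 0.590 (0.569 to 0.612) when scaled by total reads. In 4 of them (SPMIT.02, SPMIT.03, SPMIT.06 and SPMITTRNAVAL.01) no read was counted in either library, which allows up to 3 countable reads in each. Only unambiguous reads were counted, and in the ASM294v3 annotation 3 pairs of mitochondrial genes overlap. The names do not say which IDs these are, so a count of 0 cannot be read as a low level.

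Among the 12 mitochondrial transcripts with at least 10 control reads, the median Lsm8 ratio was 1.22 (range 0.919 to 14.6), beside 0.849 over all 5523 genes with that many control reads. The ratio was above 1 in 11 of these 12, against 39.2% of all such genes, and above 2 in 3 of the 12 (SPMITTRNASER.02, atp6 and SPMITTRNATYR.01), against 10.4% of all such genes. Scaled by total reads, 3 of the 12 had a ratio above 1. The exact interval lay above 1 for 19 of the 36 transcripts, against 20.3% of all listed genes with known control reads, and below 1 for 0, against 30.4%. Scaled by total reads it lay above 1 for 7 of the 36, against 2.27% of these genes, and below 1 for 10, against 70.1%. The plot of reads in both libraries shows the numbered IDs close to or above the line of equal scaled reads and most tRNA IDs at low control reads.

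**Figure D1:**
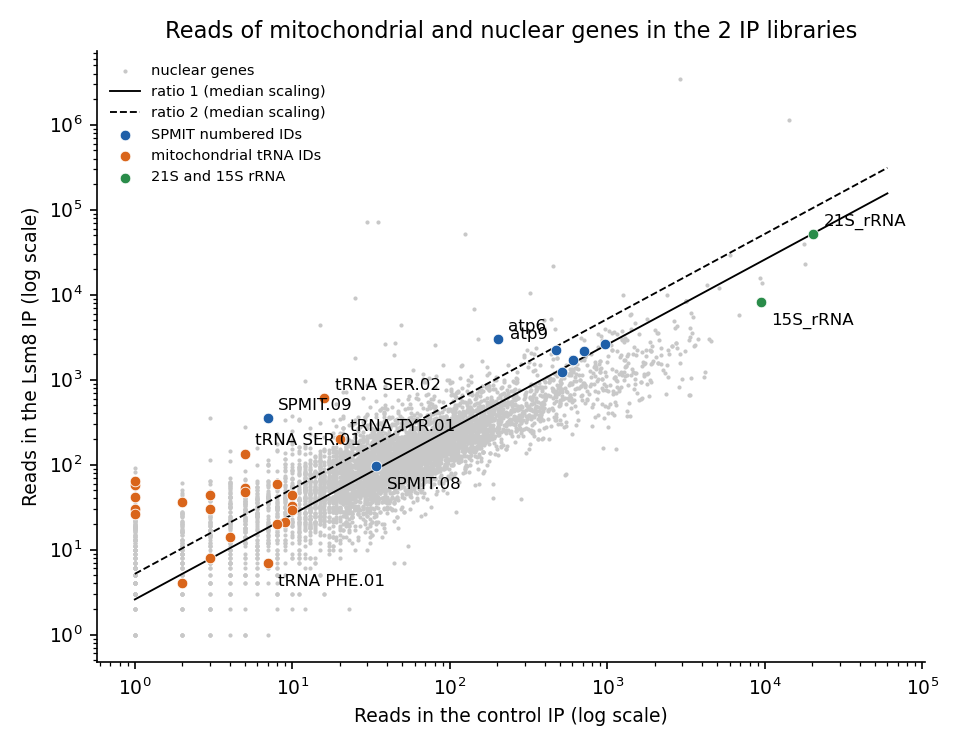
Reads in the Lsm8 IP (vertical, log scale) against reads in the control IP (horizontal, log scale) for each gene with reads in both libraries: blue, SPMIT numbered IDs; orange, mitochondrial tRNA IDs (tRNA SER.02 stands for SPMITTRNASER.02, and so on); green, 21S_rRNA and 15S_rRNA; grey, nuclear genes. The solid and dashed lines mark ratios of 1 and 2 under median scaling, and atp6 (3001 and 202 reads) lies above the dashed line while atp9 (2265 and 469 reads) lies just under it.

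Among the numbered IDs, atp6 had 3001 Lsm8 IP reads and 202 control IP reads. This is 31.3 against 5.46 normalized counts, a ratio of 5.73 (4.96 to 6.64). It remained above 1 when scaled by total reads, at 2.12 (1.84 to 2.46). By ratio, atp6 was number 21 of the 35 enriched genes and number 53 of the 5523 genes with at least 10 control reads. Its reads made up 19.9% of the Lsm8 IP reads of the 36 mitochondrial transcripts and 5.54% of their control IP reads.

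The c-ring gene atp9 had 2265 Lsm8 IP reads and 469 control IP reads, or 23.6 against 12.7 normalized counts. Its difference of 10.9 met the minimum of the enrichment rule, but its ratio of 1.86 (1.68 to 2.06) did not. Scaled by total reads its ratio was 0.689 (0.623 to 0.763), below 1. Both F0 genes thus had more normalized reads in the Lsm8 IP under median scaling, and they lie on opposite sides of 1 under total reads.

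Of the other 6 numbered IDs with reads, 5 stood close to 1. SPMIT.05 had 2172 Lsm8 IP reads and 716 control IP reads, a ratio of 1.17 (1.07 to 1.27). SPMIT.08 had 97 and 34 reads and a ratio of 1.10 (0.737 to 1.68). SPMIT.04 had 1725 Lsm8 IP reads against 607 control IP reads, a ratio of 1.10 (0.998 to 1.20). All of these lay within a factor of 1.5 of equal scaled reads. SPMIT.01 had 2621 Lsm8 IP reads and 964 control IP reads, a ratio of 1.05 (0.973 to 1.13). SPMIT.11 had 1225 Lsm8 IP reads and 514 control IP reads, a ratio of 0.919 (0.828 to 1.02). The intervals of SPMIT.01, SPMIT.04, SPMIT.08 and SPMIT.11 include 1, and only that of SPMIT.05 lies above it.

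SPMIT.09 stood apart from them at low depth. It had 353 Lsm8 IP reads and 7 control IP reads, a ratio of 19.4 (9.33 to 48.7), the highest of the numbered IDs. Its difference of 3.49 normalized counts is below the minimum of 10, so it was not enriched by the rule. Scaled by total reads its ratio was 7.19 (3.45 to 18.0). With 7 control reads its interval is the widest of the numbered IDs.

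Ratios of one transcript to another within the same 2 libraries do not depend on any scaling. The Lsm8 ratio of atp6 was 3.08 times that of atp9 (2.58 to 3.68), 4.90 times that of SPMIT.05 (4.14 to 5.81) and 6.23 times that of SPMIT.11 (5.21 to 7.47). Those against SPMIT.01, SPMIT.04 and SPMIT.08 were 5.46, 5.23 and 5.20, and the lowest bound among them was 3.32. The ratio of atp9 was 1.75 times (1.57 to 1.95) that of SPMIT.01, SPMIT.04, SPMIT.05, SPMIT.08 and SPMIT.11 together, and the ratio of SPMIT.09 was 3.39 times that of atp6 (1.60 to 8.62). The order SPMIT.09, atp6, atp9 and then the others therefore exceeds the counting error at each step. SPMIT.05 was 1.27 times SPMIT.11 (1.11 to 1.46), whereas SPMIT.01 and SPMIT.04 differed from SPMIT.05 by less than the counting error, at 0.896 (0.7998 to 1.004) and 0.937 (0.825 to 1.06) times its ratio.

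**Figure D2:**
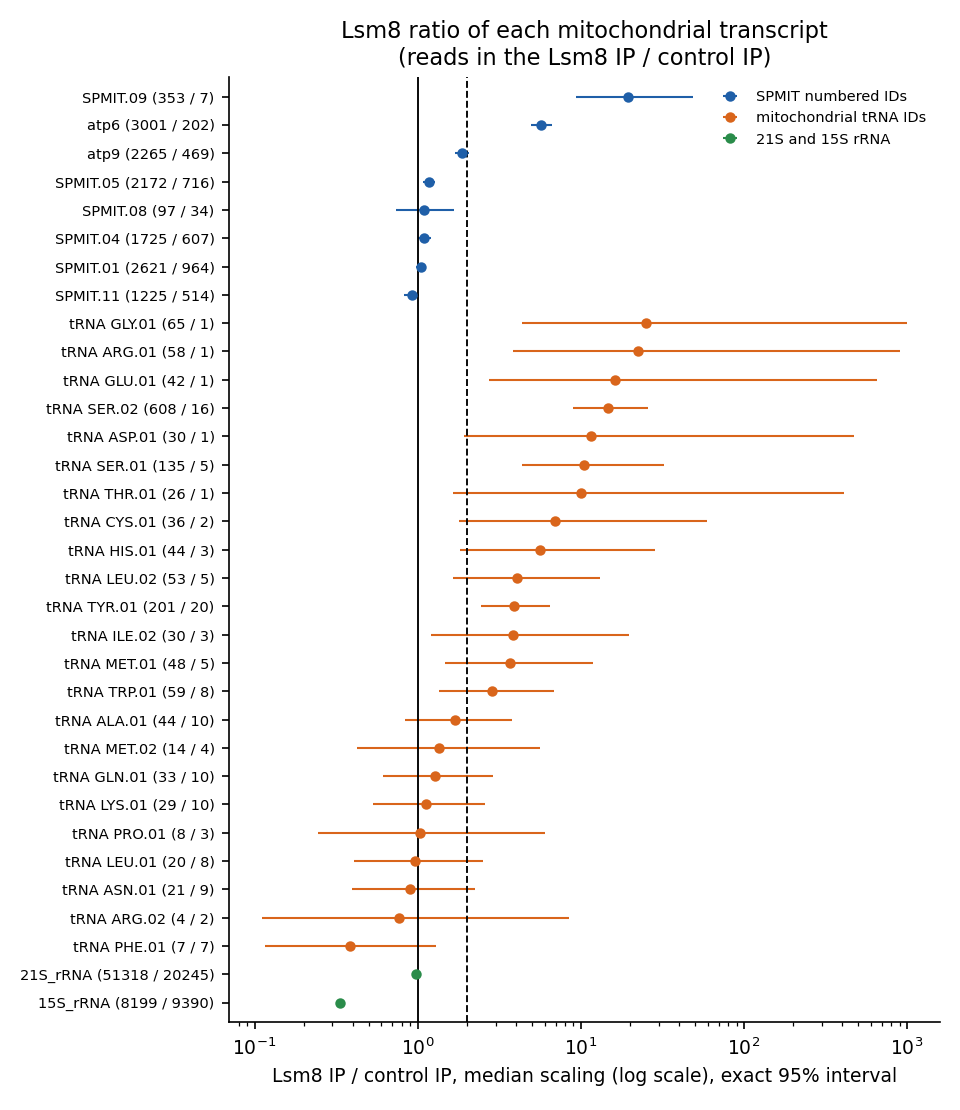
Lsm8 ratio under median scaling (horizontal, log scale) with its exact 95% interval for every mitochondrial transcript with control reads, with the reads in the Lsm8 IP and the control IP beside each name. Solid and dashed lines mark ratios of 1 and 2, and SPMIT.09, atp6 and atp9 lie above the other numbered IDs, which sit between 0.919 and 1.17.

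The mitochondrial ribosomal RNAs, the most heavily read transcripts of the organelle, had no ratio above 1. 21S_rRNA had 51318 Lsm8 IP reads and 20245 control IP reads, a ratio of 0.977 (0.961 to 0.993). 15S_rRNA had 8199 and 9390 reads, a ratio of 0.337 (0.327 to 0.347), below that of any numbered ID with reads. The ratio of 21S_rRNA was 2.90 times that of 15S_rRNA (2.81 to 3.00). SPMIT.01, SPMIT.04, SPMIT.05, SPMIT.08 and SPMIT.11 together stood at 1.09 times the ratio of 21S_rRNA (1.04 to 1.14).

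The 25 tRNA IDs cover 20 amino acids, 5 of them with 2 IDs, and 24 IDs had reads. A tRNA is the adaptor that brings its amino acid to the ribosome, and the organelle decodes its own mRNAs with this set. Together they held 1628 Lsm8 IP reads and 135 control IP reads, a ratio of 4.65 (3.90 to 5.58), and 1.72 (1.44 to 2.07) when scaled by total reads. This was 3.15 times the ratio of the 11 numbered IDs together (2.63 to 3.79), which had 13459 and 3513 reads and a ratio of 1.48 (1.42 to 1.53). None of the tRNA IDs was enriched by the rule of the study, whose minimum difference of 10 normalized counts exceeds the counts of each of them.

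The serine tRNA SPMITTRNASER.02 had the most Lsm8 IP reads of the tRNA IDs. It had 608 Lsm8 IP reads and 16 control IP reads, a ratio of 14.6 (8.95 to 25.8), and the other serine ID, SPMITTRNASER.01, had 135 and 5 reads, a ratio of 10.4 (4.35 to 32.6). The ratio of SPMITTRNASER.02 was 4.43 times that of the other tRNA IDs together (2.59 to 8.08), and 3.77 times that of the tyrosine tRNA SPMITTRNATYR.01 (1.82 to 7.95), which had 201 Lsm8 IP reads and 20 control IP reads and a ratio of 3.87 (2.44 to 6.48). Without the serine IDs the remaining 23 held 885 Lsm8 IP reads and 114 control IP reads, a ratio of 2.99 (2.46 to 3.67). That was still 2.03 times the ratio of the numbered IDs (1.66 to 2.49), but when scaled by total reads it was 1.11, with an interval of 0.910 to 1.36 that includes 1.

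The other tRNA IDs had few control reads, which sets how far each can be read. The leucine tRNA SPMITTRNALEU.02 had 53 Lsm8 IP reads and 5 control IP reads (4.09, 1.64 to 13.1). SPMITTRNAMET.01 (methionine) had 48 and 5 (3.70, 1.48 to 11.9). SPMITTRNATRP.01 (tryptophan) had 59 and 8 (2.84, 1.35 to 6.89). These intervals lie above 1 and overlap one another. For SPMITTRNAALA.01 (alanine, 44 and 10 reads, 1.70), SPMITTRNAGLN.01 (glutamine, 33 and 10, 1.27), SPMITTRNALYS.01 (lysine, 29 and 10, 1.12) and SPMITTRNAMET.02 (14 and 4, 1.35) the interval includes 1. It also includes 1 for SPMITTRNALEU.01 (20 and 8 reads, 0.964), SPMITTRNAASN.01 (asparagine, 21 and 9, 0.899) and SPMITTRNAPHE.01 (phenylalanine, 7 and 7), which at 0.385 (0.115 to 1.29) was the lowest of the 31 transcripts with control reads. The tRNA IDs are thus unequal among themselves.

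In the control IP, 10 tRNA IDs had 1 to 3 reads. SPMITTRNAGLY.01 (glycine) had 65 Lsm8 IP reads and 1 control IP read, a ratio of 25.1 whose interval runs from 4.34 to 1005. SPMITTRNAARG.01 (arginine, 58 and 1 reads, lower bound 3.86), SPMITTRNAGLU.01 (glutamate, 42 and 1, 2.75), SPMITTRNAASP.01 (aspartate, 30 and 1, 1.92) and SPMITTRNATHR.01 (threonine, 26 and 1, 1.65) also had a lower bound above 1. So did SPMITTRNACYS.01 (cysteine, 36 and 2, 1.79), SPMITTRNAHIS.01 (histidine, 44 and 3, 1.81) and SPMITTRNAILE.02 (isoleucine, 30 and 3, 1.20). For SPMITTRNAPRO.01 (proline, 8 and 3 reads) and SPMITTRNAARG.02 (4 and 2 reads) the interval includes 1. SPMITTRNAILE.01 had 13 Lsm8 IP reads and 0 control IP reads, and the lower bound of its exact interval was 1.17. Set against 3 reads in the control library, its 13 reads are 1.67-fold higher, a value without counting error. At this depth the order of these ratios was not detectable.

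In the ASM294v3 annotation atp6 lies between a leucine and the histidine tRNA gene, and atp9 between a serine and the alanine tRNA gene. Neither overlaps another gene there. The histidine tRNA SPMITTRNAHIS.01, next to atp6, had a ratio of 5.65 (1.81 to 28.5), beside 5.73 for atp6. The alanine tRNA SPMITTRNAALA.01, next to atp9, had a ratio of 1.70 (0.841 to 3.78), beside 1.86 for atp9. The names do not say which leucine and serine IDs are the other neighbours. The leucine IDs were at 0.964 (0.407 to 2.53) and 4.09, either side of 1. Both serine IDs were above atp9, SPMITTRNASER.01 at 5.59 times its ratio (2.32 to 17.6) and SPMITTRNASER.02 at 7.87 times (4.74 to 13.99), so whichever of them adjoins atp9 differed from it beyond the counting error.

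Nuclear tRNAs are the nearest nuclear counterpart of the organelle's tRNAs. The mitochondrial tRNA IDs, at 4.65, stood at 0.780 times the ratio of the nuclear ones (0.618 to 0.986), whose 171 IDs held 3078 Lsm8 IP reads and 199 control IP reads, a ratio of 5.96 (5.16 to 6.92). The control reads of 9 of the nuclear IDs are not known. The order rests on 1 gene on each side. Without the nuclear SPBTRNAGLY.09 the mitochondrial tRNA IDs stood at 1.64 times the nuclear ones (1.28 to 2.09), which then held 1281 and 174 reads (ratio 2.84, 2.42 to 3.34). Without SPMITTRNASER.02 as well they stood at 1.16 times (0.903 to 1.504), within the counting error. Only uniquely mapped reads were counted, so reads shared by gene copies of the same sequence are missing. The 4 nuclear histidine IDs and the 3 nuclear tryptophan IDs had 0 Lsm8 IP reads, beside 44 and 59 for the organelle. How far this moves the comparison was not tested. The counted reads were also spread over different amino acids. Serine tRNAs had 743 Lsm8 IP reads and 21 control IP reads for the organelle, beside 76 and 14 for the nuclear genes. Glycine tRNAs had 65 and 1 for the organelle, beside 1807 and 25 for the nuclear genes.

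The 8 numbered IDs with reads and the tRNA IDs with the most control reads, SPMITTRNASER.02 and SPMITTRNATYR.01, were also set beside nuclear genes whose control reads were within 1.5 times their own, since the median ratio of nuclear genes was 1.46 at 5 to 10 control reads and 0.443 at 644 to 1439. For atp6, at 5.73, there were 601 such genes, with a median ratio of 0.678 (quartiles 0.505 and 0.913). Of these, 2 had a ratio as high, snoU14 (6772 Lsm8 IP reads and 142 control IP reads), a small nucleolar RNA, and rpb10 (2993 and 151), a subunit shared by the nuclear RNA polymerases. In ASM294v3 snoU14 overlaps no other gene, and rpb10 overlaps 1 non-coding transcript. For atp9, at 1.86, 10 of 264 were as high (median 0.576). SPMIT.05 had 11 of 180 as high (median 0.524), SPMIT.04 12 of 196 (0.572), SPMIT.01 17 of 151 (0.443) and SPMIT.11 36 of 232 (0.572). All 4 lay above the upper quartile of their nuclear neighbours in control reads although their own ratios were near 1.

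At low control reads the picture differed between transcripts. SPMIT.08 lay inside the quartiles of its 1667 nuclear genes (0.648 and 1.49, median 0.969), 695 of which were as high. SPMIT.09 was exceeded by 1 of 431 (median 1.46), the non-coding SPNCRNA.1038 with 275 Lsm8 IP reads and 5 control IP reads. SPMITTRNASER.02 was matched or exceeded by 2 of 1114 (median 1.19) and SPMITTRNATYR.01 by 46 of 1270 (median 1.14).

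**Figure D3:**
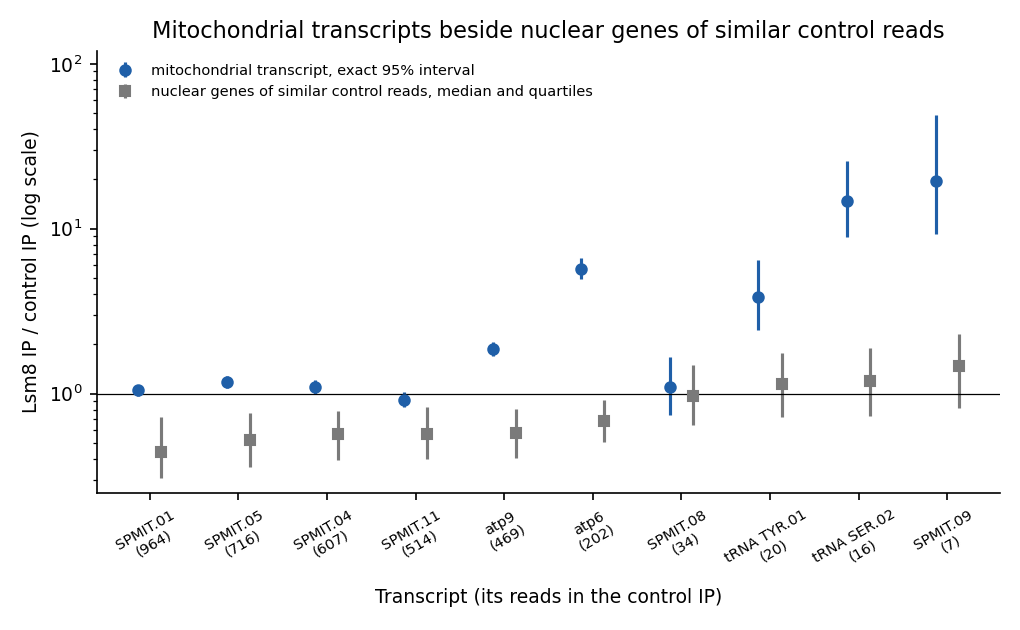
Lsm8 ratio (vertical, log scale, median scaling) of the 8 numbered IDs with reads and of SPMITTRNASER.02 and SPMITTRNATYR.01 (blue, exact 95% interval), each beside the median and quartiles of the nuclear genes with control reads within 1.5 times its own (grey squares). Transcripts run from the most to the fewest control reads, and of the 10 shown SPMIT.08 is the one that lies within its nuclear quartiles.

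The nuclear genome encodes most of the proteins that work with these transcripts, and their mRNAs are translated in the cytosol. The 17 genes listed for complex V, the ATP synthase in which atp6 and atp9 act, include assembly factors and an inhibitor besides its subunits. Their median Lsm8 ratio was 0.795, and 0 of them were enriched. The lowest were atp7 (111 Lsm8 IP reads and 157 control IP reads, 0.272) and atp17 (68 and 66, 0.397), and the highest were atp15 (225 and 20, 4.34) and atp14 (307 and 37, 3.20). In ASM294v3 atp14 overlaps 1 non-coding transcript. Those 2 are small subunits of the enzyme. Both ratios were below the 5.73 of atp6, but the interval of atp15 (2.74 to 7.24) includes that value.

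Among the 8 genes of complex IV (cytochrome oxidase) the median was 1.08, and 1 was enriched, cox8, with 1946 Lsm8 IP reads and 44 control IP reads (17.0, 12.6 to 23.5). The others included cox12 at 1.21 and, lowest, cox5 at 0.149 and cox4 at 0.293. Of the complex IV assembly factors 9 had at least 10 control reads, with a median of 1.03. One of them was enriched, cox16, with 2700 and 45 reads (23.1, 17.2 to 31.8), followed by cox17, a copper chaperone, at 2.43. The lowest were cox10 at 0.514 and cox19 at 0.736. In ASM294v3 cox8 overlaps the protein-coding gene mvd1 and cox16 overlaps 3 non-coding transcripts, whose reads cannot be told apart without strand. Complex III (the bc1 complex) had a median of 1.32 over 9 genes, from rip1 at 0.461 and qcr1 at 0.546 to qcr9 at 2.56 and qcr10 at 2.66, and 0 were enriched. There qcr9 overlaps the protein-coding gene mcm3 and qcr10 overlaps 1 non-coding transcript.

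The genes that express the mitochondrial genome did not stand above the other genes. The 18 found of this list had a median of 0.740 and 0 were enriched. They ran from ppr6 at 0.357 and pet127 at 0.465 to ppr4 at 1.72 and rpo41, the mitochondrial RNA polymerase, with 175 Lsm8 IP reads and 54 control IP reads. The 49 mitochondrial ribosomal protein genes with at least 10 control reads had a median of 0.771, with mrps8 at 0.294 and mrps9 at 0.296 lowest and mrpl38 at 3.19 and mrps16 at 6.61 highest. Of these, mrps16 (1166 Lsm8 IP reads and 68 control IP reads) was enriched, and it overlaps 1 non-coding transcript in ASM294v3. The medians of these lists lie between 0.740 and 1.32, beside 0.849 over all genes with at least 10 control reads.

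RNA-Seq counts were analyzed for 40 RNAs, which include atp6 and atp9 and no other SPMIT ID. The study's own edgeR comparison listed both mitochondrial ribosomal RNAs among the genes with higher levels in pof8Δ cells. The results for atp6 and atp9 given below therefore do not speak for the other mitochondrial transcripts. These are ribo-depleted, stranded libraries of whole cells, scaled to CPM (the count as parts of 1000000 reads) with effective sizes of 47692943 to 76464547 reads that were worked back from the deposited average log2 CPM. The 40 RNAs were selected on the Lsm8 IP and the count of pof8 is not among them, so the deletion itself could not be used to check the labels. In whole cells, fewer mitochondria and less RNA per mitochondrion cannot be told apart.

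In pof8Δ libraries atp6 was at 1183, 942 and 1038 CPM, against 1170, 1237 and 1156 CPM in pof8+ libraries. The groups overlap, since the highest pof8Δ library lay within the range of the pof8+ libraries. The means were 1054 ± 121 CPM in pof8Δ and 1188 ± 43.0 CPM in pof8+ cells (SD, n = 3 libraries each). On the log2 scale the change was -0.17 (standard error 0.11, 95% interval -0.44 to 0.09, adjusted p = 0.500 in edgeR's quasi-likelihood fit, Benjamini-Hochberg over 40 RNAs). A change of atp6 beyond this interval was not seen, and the p does not show that its level was equal.

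For atp9 the values were 2731, 1865 and 1983 CPM in pof8Δ libraries, against 2334, 2905 and 2113 CPM in pof8+ libraries. Both groups had 1 library well above the other two, and they overlap. The means were 2193 ± 470 CPM in pof8Δ and 2450 ± 409 CPM in pof8+ cells (SD, n = 3 libraries each), with a log2 fold change of -0.16 (standard error 0.19, 95% interval -0.61 to 0.29, adjusted p = 0.661 by the same edgeR test). A call needed a change of more than 1 on the log2 scale in either direction with an adjusted p below 0.05, and neither gene met it, against 1 of the 40 RNAs (2.5%). At an unadjusted p below 0.05, edgeR gave 0 of these 2 genes, against 7 of the 40 RNAs (17.5%), and DESeq2 0, against 8 of the 40. Without pof8Δ replicate 1, atp6 had an unadjusted p of 0.0413 in edgeR (adjusted p = 0.201). The median log2 fold change over the 40 RNAs was -0.10, and 31 of them were below 0.

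**Figure D4:**
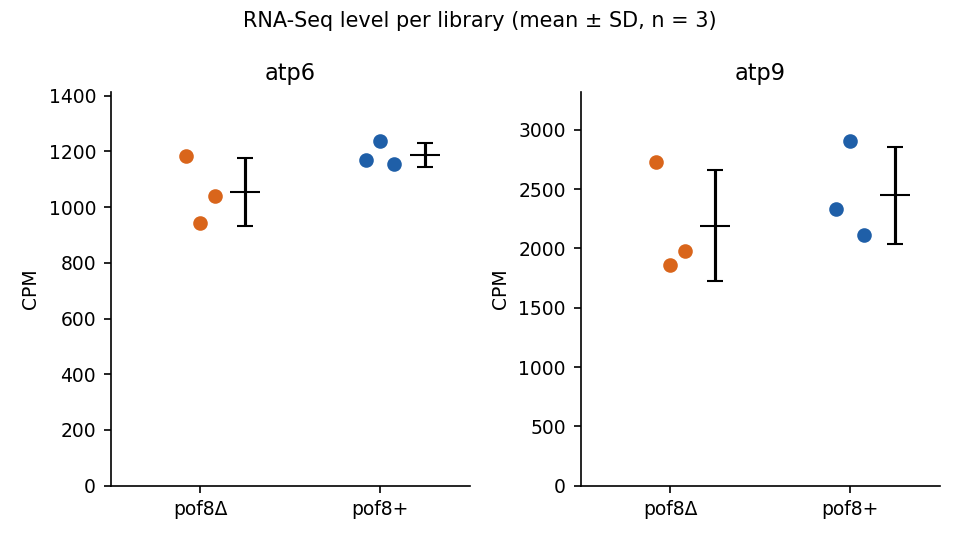
Levels of atp6 (left) and atp9 (right) in CPM (vertical axes from 0) in 3 pof8Δ libraries (orange) and 3 pof8+ libraries (blue), with mean ± SD beside the points. The groups overlap for both genes.

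Per length, atp9 was the more abundant of the pair in whole cells. The means were 9746 RPKM (CPM per kilobase) for atp9 (225 bp) and 1362 for atp6 (774 bp) in pof8Δ cells, against 10890 for atp9 and 1535 for atp6 in pof8+ cells.

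The balance of the pair can be read in all 8 libraries without any scaling. There were 2.31, 1.98 and 1.91 atp9 reads per atp6 read in pof8Δ libraries, against 1.99, 2.35 and 1.83 in pof8+ libraries. The means of 2.07 ± 0.213 in pof8Δ and 2.06 ± 0.266 in pof8+ (SD, n = 3 each) differed by 0.00968, with p = 1 in an exact two-sided permutation test, which cannot go below 0.1 with these numbers. The Lsm8 IP held 0.755 atp9 reads per atp6 read (0.714 to 0.797) and the control IP 2.32 (1.96 to 2.75). The control IP thus lay within the range of the RNA-Seq libraries (1.83 to 2.35) and the Lsm8 IP below all of them. Per kilobase, there were 2.60 atp9 reads per atp6 read in the Lsm8 IP, against 7.99 in the control IP, and 6.28 to 8.08 in the RNA-Seq libraries. The IP and RNA-Seq libraries differ in read length (40 and 100 bp), strand, depletion of rRNA and starting material. By the study's methods, RNA for IPs came from native extract cleared by centrifugation, and total RNA from lysed cells by phenol extraction. The part of these differences in the values was not tested.

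**Figure D5:**
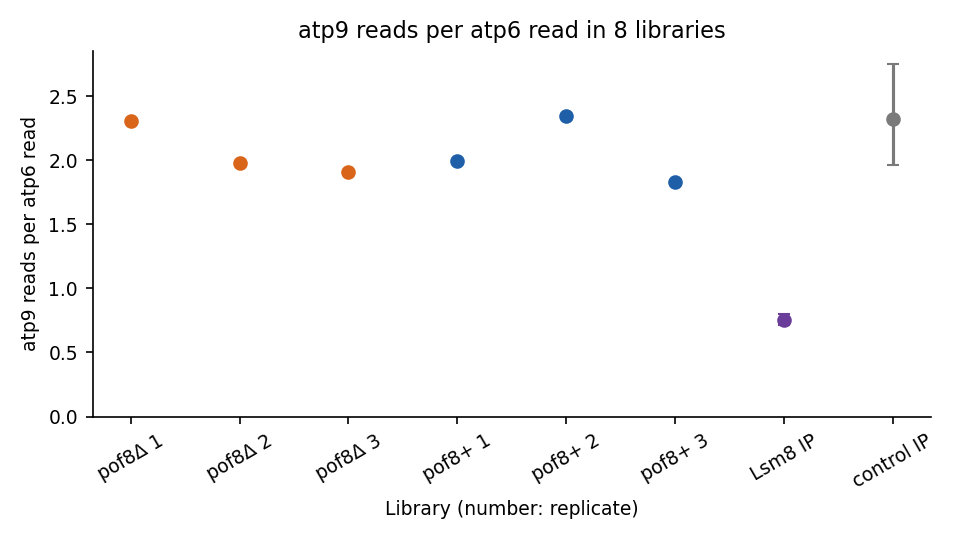
Number of atp9 reads per atp6 read (vertical axis from 0) in 3 pof8Δ libraries (orange), 3 pof8+ libraries (blue), the Lsm8 IP (purple) and the control IP (grey), with exact 95% intervals for the IP libraries. The Lsm8 IP, at 0.755, lies below the other 7 libraries, which sit between 1.83 and 2.35.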

How the data were processed

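RIP-Seq was analyzed for 1 Lsm8 IP and 1 control IP library, and RNA-Seq for 3 pof8Δ and 3 pof8+ libraries. Conditions were taken from the sample labels. For the RIP-Seq, the authors aligned 40 bp unstranded single-end reads with STAR 2.5.2b against ASM294v2, assigned to each gene its uniquely mapped, unambiguous reads regardless of strand, and deposited 2 columns. The deposited signal is the authors' count over the median count of the library, and the deposited ratio sets it against the control IP. Whole reads of both libraries were worked back from these columns (tolerance 1e-06). For the RNA-Seq (100 bp stranded reads), the authors deposited counts per gene and library for 40 of 44 listed RNAs, their average log2 CPM and their average RPKM. Of per-sample columns, 0 were left out. The authors' enrichment mark and their own comparison (fold changes, likelihood ratios, p-values), made with edgeR 3.14.0, were not used in any calculation.

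Control reads of 98 genes with reads in the control IP alone could not be worked back. Effective library sizes were fitted to the deposited log2 CPM with minpack.lm 1.2.4. Library totals (49448968 to 72951191 reads) were solved from the deposited RPKM with ASM294v3 gene lengths. The gene lengths given above were then solved from the RPKM and these totals. Counts were tested with edgeR 4.0.16 (glmQLFit, glmQLFTest) in R 4.3.3. The F statistic gave the standard errors. All 40 RNAs had at least 1 CPM in 3 libraries. DESeq2 1.42.0 served as an alternative. Python 3.11.15, NumPy 2.4.6, pandas 2.3.3, SciPy 1.17.1 and Matplotlib 3.10.9 were used elsewhere, and the fits were tested on simulated data.

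The members and lists were chosen with earlier results of these data known. Every SPMIT ID was named or counted, the 2 mitochondrial rRNA genes were set beside them, and of each nuclear list the 2 highest and 2 lowest genes with at least 10 control reads were named. Of the listed nuclear names, ppr9 and pet100 were not matched, and cox11 matched 2 near-identical genes with 0 unique reads each. Of 7014 IDs, 6846 were matched to ASM294v3. It was used for names, classes, neighbours, overlaps and the gene lengths behind the library totals. Alternatives covered scaling, thresholds, the window of control reads, the test, a block for replicate numbers, and fits without each library.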

Additional observations from a re-analysis of the deposited data

How the results depend on the processing

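The number of enriched mitochondrial transcripts was 1 under median scaling (35 of all 7014 genes), 1 with medians over genes with at least 1 read (34 of all) and 1 with a ratio above 4 (26 of all). It was 0 when scaled by total reads (11 of all), where atp6 fell short of the difference of 10, and 2 (atp6 and atp9) when scaled by total reads without the snRNAs (56 of all). Leaving out the mitochondrial rRNAs as well, an alternative chosen after seeing the data, also gave 2 (55 of all). With no minimum difference it was 17 of 36, beside 1110 of all 7014. The median Lsm8 ratio of the transcripts with at least 10 control reads, 1.22, became 1.26 with medians over genes with reads, 0.452 with total reads, 1.49 without the snRNAs, 1.49 without the rRNAs as well, 2.84 over the 31 transcripts with at least 1 read in both libraries, 1.10 over the 7 with at least 30 control reads and 1.14 with both rRNAs included. Scaling moves all ratios together, so the order of the transcripts does not depend on it. With a narrower window of nuclear control reads 0 of 321 genes were as high as atp6, and with a window of 2 times 4 of 1153.

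For atp6 and atp9 the log2 fold change in pof8Δ was below 0 and not called in all 14 fits, from -0.26 to -0.05 for atp6 and from -0.35 to -0.02 for atp9, with adjusted p from 0.201 to 0.871 and from 0.246 to 0.981 (edgeR or DESeq2). With each library left out in turn the values ran from -0.26 to -0.10 for atp6 and -0.35 to -0.02 for atp9, and 0 calls each time. TMM factors over the 40 RNAs moved the median of all 40 by 0.12, and relative to the median atp6 stood at -0.08 under that scaling and at -0.08 in the main fit. The replicate block gave -0.18 for atp6 and -0.17 for atp9 and 0 calls. Libraries that share a number did not deviate together (correlations over 40 RNAs of 0.34, -0.68 and 0.20), so the numbers were not taken as pairs. The low control reads limit the tRNA ratios, and with 1 IP library per group the spread between IPs is unknown.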
